A study of Mus musculus with 24 samples.

Results

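Cells that surround PDGFB-driven mouse gliomas were compared between tumours taken late and tumours taken early among the animals that showed symptoms. The comparison takes 8 of the 24 libraries of the series, chosen by the letters that end the library labels: 4 late surrounding libraries (labels ending tD) and 4 early symptomatic ones (labels ending pS). The late libraries come from tumours 3054A (120 days after transduction), 3054B (175 days), 3054C (175 days) and 3057E (100 days). The early ones come from 3108C (43 days), 3108D (43 days), 3109D (50 days) and 3145A (35 days). All animals of the series received PDGFB by gene transfer in utero into the ventricles of the embryonic telencephalon, and the labels name no other allele, no strain and no treatment. Each brain gave a library of sorted fluorescent glioma cells and a library of the non-fluorescent cells around them, and only the latter are the subject here. The label of the glioma cells reads RED for 3057E and GFP for the other 7 tumours. The 4 asymptomatic tumours (3228A, 3228B and 3228D at 33 days, 3229B at 34 days) are shown beside, because they share the fit. The code prefix 3054 occurs only in late tumours, and stage, day and code prefix cannot be told apart. Results are therefore given with all 4 late libraries and, beside them, without 3057E, which leaves only the 3054 tumours in the late group.

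The sorted fraction is a mixture. In a glioma, the cells around the tumour cells include microglia, the resident macrophages of the brain, and monocytes, which enter from the blood and turn into macrophages. Dendritic cells and macrophages carry MHC class II molecules, which display peptides to CD4 T cells, whereas MHC class I molecules display peptides to CD8 T cells on almost every cell. Type I and type II interferons act through STAT transcription factors and switch on antiviral and antigen presentation genes. A cell is in the surrounding fraction because it lacks fluorescence, so tumour cells that do not fluoresce would fall into it too. In bulk RNA, more cells of a type and more RNA per cell cannot be told apart.

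In 7 of the 8 libraries myeloid markers set the surrounding cells apart from the sorted glioma cells of the same tumour, and in 3057E microglia markers did not. Levels of a gene list are given as the mean log2(CPM + 1) of its genes, where CPM is the TMM-scaled count relative to the library size. The homeostatic microglia list stood at 8.74 in 3054A, 8.90 in 3054B, 9.07 in 3054C and 6.22 in 3057E, against 7.61 to 8.45 in the early libraries. In the sorted glioma cells of the same tumours that list stood at 1.98, 2.17 and 2.38 in 3054A, 3054B and 3054C, at 2.49 to 3.16 in the early tumours and at 6.29 in 3057E. The activated microglia list likewise stood at 6.63 in the glioma library of 3057E and at 6.24 in its surrounding library. Monocyte markers did differ between the fractions of 3057E, at 5.59 in surrounding and 2.59 in glioma cells. Markers of oligodendrocyte precursor cells (OPC), the cells that PDGFB-driven gliomas resemble, went the other way: 7.47, 6.60 and 5.06 in 3054A, 3054B and 3054C and 8.88 in 3057E, against 7.74 to 9.11 in the early libraries. The library 3057E was thus the lowest of the 8 in homeostatic microglia markers. In OPC markers it lay among the early libraries and close to its own glioma library (9.27). Early 3108D was close to the glioma library of its code too, at 9.11 against 9.16, so this was not particular to 3057E. In activated microglia markers early 3108D was lower than 3057E, at 6.05. The share of each marker list in the differences below was not tested.

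Total counts ran from 9075571 to 15471169 in the late libraries and from 9270455 to 11885996 in the early ones. Mitochondrial genes took 7.70% to 19.98% of the counts in late and 7.41% to 19.3% in early libraries, so the groups overlapped in both measures. Sex was not balanced: Xist, transcribed from the inactive X chromosome, stood at 1500 and 771 CPM in 3054A and 3054B and at 1.98 and 0 CPM in 3054C and 3057E. In the early libraries it stood at 649, 1080 and 993 CPM in 3108C, 3109D and 3145A and at 2.08 CPM in 3108D. The glioma libraries coded 3108D and 3109D stood at 1590 and 1.89 CPM, opposite to the surrounding libraries of the same codes. Both codes belong to the early group, so the groups compared here are the same whichever code is right.

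**Figure D1:**
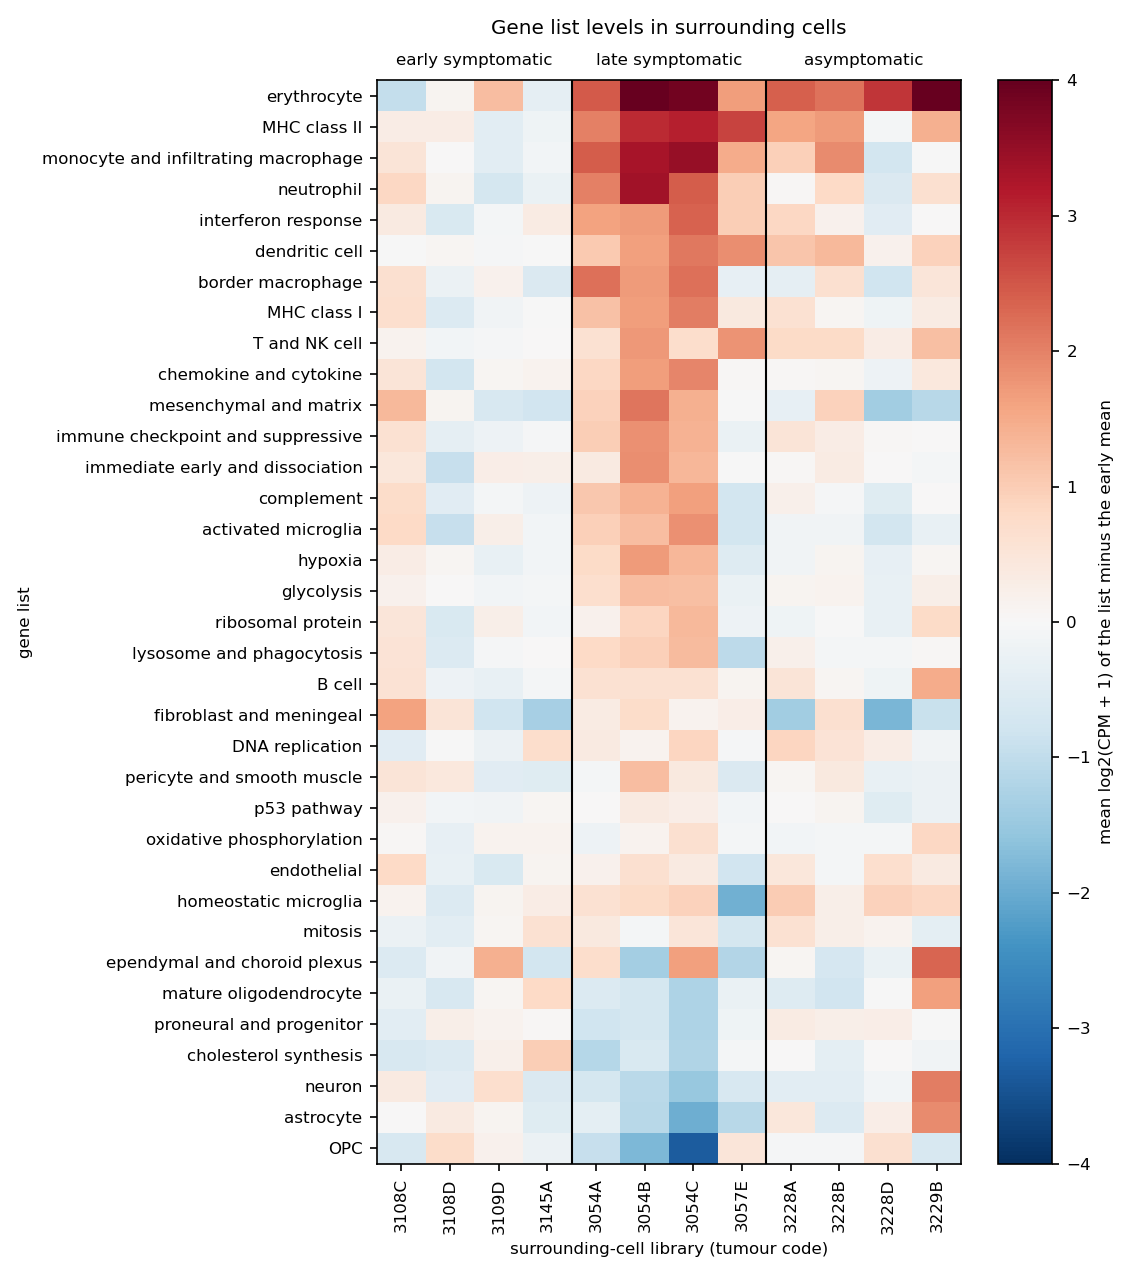
Levels of the 35 gene lists in the 12 surrounding libraries, as the mean log2(CPM + 1) of the list minus the mean of the 4 early symptomatic libraries; each column is a library, and colours are clipped at -4 and 4. The late libraries 3054A, 3054B and 3054C are high in monocyte, MHC class II and interferon genes and low in OPC genes, while 3057E shares the MHC class II and dendritic cell rows and differs in the homeostatic microglia and hypoxia rows.

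Interferon response genes were among the groups that rose in all 4 late libraries, and their promoters are shown first, for the element through which interferons act. The interferon-stimulated response element binds complexes of STAT and IRF proteins. Its core was searched as GAAANNGAA on both strands in RefSeq promoters of build GRCm38.p6, in the 250 bases before the gene start. The core was present in 2342 of 32851 promoters (7.1%). Counted by gene, with a match in any promoter of the gene, it was present in 2211 of 27025 genes (8.2%) and in 16 of the 26 interferon list genes that the promoter table holds (61.5%). Of the 13 list members that rose in the 4 late libraries, 9 were in the table and 5 of those held the core (55.6%): Gbp7, Ifit3, Isg15, Oas1a and Oas3. The gamma-activated site, searched as TTCNNNGAA, was in 5 of the 26 (19.2%), against 2197 of all 27025 genes (8.1%). A match describes the letters and does not show binding. The 250 bases before the start of 4 of these genes follow, 5′ to 3′ on the gene's strand, with each core in capitals, also where it lies on the opposite strand:
Oas3, chr5:120777660-120777909 (minus strand): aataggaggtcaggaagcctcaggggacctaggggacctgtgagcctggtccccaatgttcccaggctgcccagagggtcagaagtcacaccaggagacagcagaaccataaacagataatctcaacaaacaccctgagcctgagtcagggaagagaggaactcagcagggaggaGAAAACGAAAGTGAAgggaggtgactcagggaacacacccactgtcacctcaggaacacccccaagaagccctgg
Isg15, chr4:156200819-156201068 (minus strand): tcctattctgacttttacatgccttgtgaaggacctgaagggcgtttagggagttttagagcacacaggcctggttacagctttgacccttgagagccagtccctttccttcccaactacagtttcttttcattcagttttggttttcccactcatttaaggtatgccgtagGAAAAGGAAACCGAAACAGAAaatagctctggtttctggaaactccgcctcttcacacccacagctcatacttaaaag
Oas1a, chr5:120907526-120907775 (minus strand): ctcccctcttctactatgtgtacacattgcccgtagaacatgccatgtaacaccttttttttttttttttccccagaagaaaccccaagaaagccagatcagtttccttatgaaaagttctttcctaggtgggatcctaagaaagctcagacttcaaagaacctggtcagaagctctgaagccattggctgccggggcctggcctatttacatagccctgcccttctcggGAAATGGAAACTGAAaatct
Ifit3, chr19:34583279-34583528 (plus strand): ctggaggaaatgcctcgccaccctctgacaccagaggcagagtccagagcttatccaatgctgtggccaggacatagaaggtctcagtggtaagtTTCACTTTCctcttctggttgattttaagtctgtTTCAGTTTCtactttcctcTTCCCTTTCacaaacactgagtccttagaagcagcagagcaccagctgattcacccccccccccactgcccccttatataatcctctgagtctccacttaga
In Oas3 and Oas1a 2 overlapping cores formed 1 run, and in Isg15 3 did. The core nearest to the start lay 69 bases before it in Oas3, 66 in Isg15, 14 in Oas1a and 102 in Ifit3. In Ifit3 the 3 cores were separate and lay on the opposite strand.

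Oas3 (ENSMUSG00000032661, GRCm38 chromosome 5, 120753098 to 120777661) encodes an oligoadenylate synthetase that senses double-stranded RNA. It stood at 27.6, 46.4 and 62.9 CPM in 3054A, 3054B and 3054C and at 18.7 CPM in 3057E, against 2.51, 2.47, 1.32 and 1.42 CPM in the early libraries. Every late library stood above every early one, with a log2 fold change of 4.29 ± 0.67 (SE, n = 4 per group, edgeR adjusted p = 0.0169). Oas1a, a second synthetase, stood at 45.8, 57.8 and 93.3 CPM in the 3054 libraries and 14.6 CPM in 3057E, against 6.62 to 13.1 CPM in early ones (2.47 ± 0.50, edgeR adjusted p = 0.0338). For this gene 3057E lay just above the highest early library. Isg15, a ubiquitin-like protein joined to other proteins after interferon, stood at 11.6, 20.6, 45.0 and 9.71 CPM in 3054A, 3054B, 3054C and 3057E, against 1.68 to 5.73 CPM (2.49 ± 0.53). Ifit3, which binds viral RNA together with its relatives, stood at 100, 67.3, 172 and 101 CPM, against 18.6 to 41.9 CPM (1.60 ± 0.36, edgeR adjusted p = 0.0477). For Isg15 and Ifit3 the late and early libraries did not overlap.

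Across all genes, edgeR's quasi-likelihood test called 260 of the 17618 tested (1.48%) at an adjusted p under 0.05, 248 higher (1.41%) and 12 lower (0.0681%) in late libraries. Without 3057E it called 3409 of 18065 (18.9%), 1657 higher (9.17%) and 1752 lower (9.70%). All 260 genes kept their direction and their call there, and made up 7.63% of the calls. The 2 fits share 7 of the 8 libraries compared, so this overlap is a description only. Of the 248 higher genes, 243 had no overlap between late and early libraries, as had all 12 lower ones. Over all tested genes 888 (5.04%) had every late library above every early one and 379 (2.15%) the reverse.

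These counts rest on few libraries. With all 4 late libraries edgeR called 0 genes when 3108D, 3109D or 3145A was left out, with 2184, 2175 and 2345 genes at an unadjusted p under 0.05 and a smallest adjusted p of 0.0594, 0.0609 and 0.0774. It called 151 genes without 3054A (143 higher), 63 without 3054B (61 higher) and 88 without 3054C (85 higher). The 12 lower genes numbered 4 without asymptomatic 3228A and 7 without 3228D. In the fit without 3057E, leaving out 1 more library gave 1688 genes without 3054B, 1319 without 3054C, 1757 without 3108D, 1912 without 3109D and 1986 without 3145A. Without both 3108D and 3109D, whose codes are in doubt, edgeR called 0 genes with or without 3057E, with 1454 and 3738 at an unadjusted p under 0.05. In that setting each of the 44 called genes named by the rule kept its direction.

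By a rule on size, the 10 higher genes with the largest folds included Slfn1, Plac8, Ifi205, Clec4e, Oas3, Itgae, Napsa, S100a8 and Ifi213, with log2 fold changes from 4.94 to 4.03. Slfn1 (ENSMUSG00000078763, chromosome 11, 83116849 to 83122670) belongs to the interferon-inducible schlafen family. It stood at 23.8, 59.7, 62.3 and 30.2 CPM in 3054A, 3054B, 3054C and 3057E, against 2.51, 0.988, 0.791 and 1.33 CPM in the early libraries (4.94 ± 0.71, SE, n = 4 per group, edgeR adjusted p = 0.0168). Its late libraries all stood above its early ones. Clec4e, a pattern receptor of activated myeloid cells, stood at 24.3, 67.1 and 42.8 CPM in the 3054 libraries and at 6.08 CPM in 3057E, against 0.988 to 2.58 CPM (4.41 ± 0.86, edgeR adjusted p = 0.0293). Napsa, an aspartic protease, stood at 19.3, 81.0, 66.5 and 29.8 CPM against 1.23 to 3.76 CPM (4.16 ± 0.73). Ifi205 and Ifi213 belong to a cluster of similar interferon-inducible genes, between which reads were split by estimate, and had folds of 4.50 ± 0.67 and 4.03 ± 0.72. The early counts of these genes were low, so the sizes of the folds are less certain than their direction: Slfn1 had 55 counts over the 4 early libraries.

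Monocyte and infiltrating macrophage markers rose in 7 of 18 tested genes with all 4 late libraries and in 14 of 18 without 3057E, with median log2 fold changes of 2.71 and 2.87. The median over all tested genes was 0.00 in both fits. Plac8 (ENSMUSG00000029322, chromosome 5, 100553725 to 100572245), a marker of blood monocytes, stood at 29.5, 100 and 130 CPM in 3054A, 3054B and 3054C and at 92.5 CPM in 3057E, against 2.51, 2.57, 2.28 and 6.48 CPM in early libraries. Its log2 fold change was 4.63 ± 0.62 (edgeR adjusted p = 0.0168), with no overlap. Ccr2, the chemokine receptor that brings monocytes out of the bone marrow, stood at 153, 228, 425 and 243 CPM against 12.2, 24.1, 17.5 and 31.7 CPM (3.58 ± 0.64, edgeR adjusted p = 0.0217). Itga4, an integrin of blood leukocytes that resident microglia express little, stood at 161, 132, 156 and 163 CPM against 20.1 to 38.1 CPM (2.44 ± 0.42). In all 3 genes 3057E lay within the range of the other late libraries or at its edge. Ms4a4c stood at 39.6, 67.8, 108 and 30.6 CPM against 2.28 to 6.04 CPM (3.86 ± 0.58). The other called members were Ly6c2, Ms4a7 and F10. Itga4 also rose in the sorted glioma cells, from a mean of 2.83 CPM in early to 16.2 CPM in late ones. Its log2 fold change there was 2.51 ± 0.32 (edgeR adjusted p = 0.00933), so its rise was not particular to surrounding cells. Of the 14 genes that rose without 3057E, 3057E itself stood above all early libraries in 10.

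Other macrophage genes shared this pattern in part or not at all. Arg1 (ENSMUSG00000019987, chromosome 10, 24915221 to 24927484), an arginase of tumour-associated macrophages, stood at 201, 1020 and 1420 CPM in 3054A, 3054B and 3054C but at 2.15 CPM in 3057E, against 8.60, 6.23, 2.64 and 1.51 CPM in the early libraries. It rose without 3057E (7.49 ± 1.39, n = 3 against 4, edgeR adjusted p = 0.00662) and missed the threshold with it (7.07 ± 1.78, adjusted p = 0.0767). Chil3, a chitinase-like protein of activated macrophages, stood at 180, 708 and 617 CPM in the 3054 libraries, at 53.9 CPM in 3057E and at 6.85 to 30.0 CPM in early ones (4.95 ± 1.19 without 3057E). For Chil3 3057E thus lay above the early range, below the other late libraries, and the gene was called without 3057E alone. Border macrophages line vessels and meninges. Of 10 genes listed as their markers, 1 rose with all 4 late libraries and 7 rose without 3057E. Which cells carried these transcripts was not tested. The gene called with all 4 was the lectin Clec10a, at 8.97, 19.4, 18.0 and 12.2 CPM against 0.176 to 1.88 CPM (4.28 ± 0.94, edgeR adjusted p = 0.0449). It had 29 counts over the 4 early libraries. F13a1, a coagulation factor subunit made by macrophages, stood at 219, 349 and 383 CPM in the 3054 libraries and at 16.6 CPM in 3057E, within the early range of 5.06 to 31.2 CPM. Of the 7 border macrophage genes called without 3057E, 3057E was above all early libraries in 1.

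MHC class II genes rose in 7 of 9 tested members with all 4 late libraries and in 9 of 9 without 3057E (median log2 fold changes 3.56 and 3.49). The members called in both fits were H2-Aa, H2-Ab1, H2-Eb1, H2-DMb1, H2-DMb2, Cd74 and Ciita, and H2-DMa and H2-Oa were called without 3057E alone. H2-Aa (ENSMUSG00000036594, chromosome 17, 34282744 to 34287823), an alpha chain of the peptide receptor, stood at 319, 1020, 1000 and 883 CPM in 3054A, 3054B, 3054C and 3057E. In the early libraries it stood at 66.0, 80.7, 35.0 and 42.3 CPM (3.80 ± 0.62, edgeR adjusted p = 0.0187). H2-Eb1, a beta chain, stood at 293, 819, 819 and 680 CPM against 27.5 to 76.2 CPM (3.78 ± 0.60). H2-DMb2, part of the chaperone that loads peptides, stood at 16.5, 39.6, 36.7 and 24.4 CPM against 1.41 to 3.46 CPM (3.56 ± 0.44, edgeR adjusted p = 0.0168). Ciita, the master activator of these genes, stood at 29.2, 33.2 and 47.9 CPM in the 3054 libraries and highest in 3057E at 67.8 CPM, against 2.04 to 7.51 CPM (3.61 ± 0.71). The list level was 6.06, 7.03, 7.17 and 6.75 in the late and 3.62 to 4.35 in the early libraries. The library with the least homeostatic microglia marker RNA was thus within the late range for MHC class II.

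**Figure D2:**
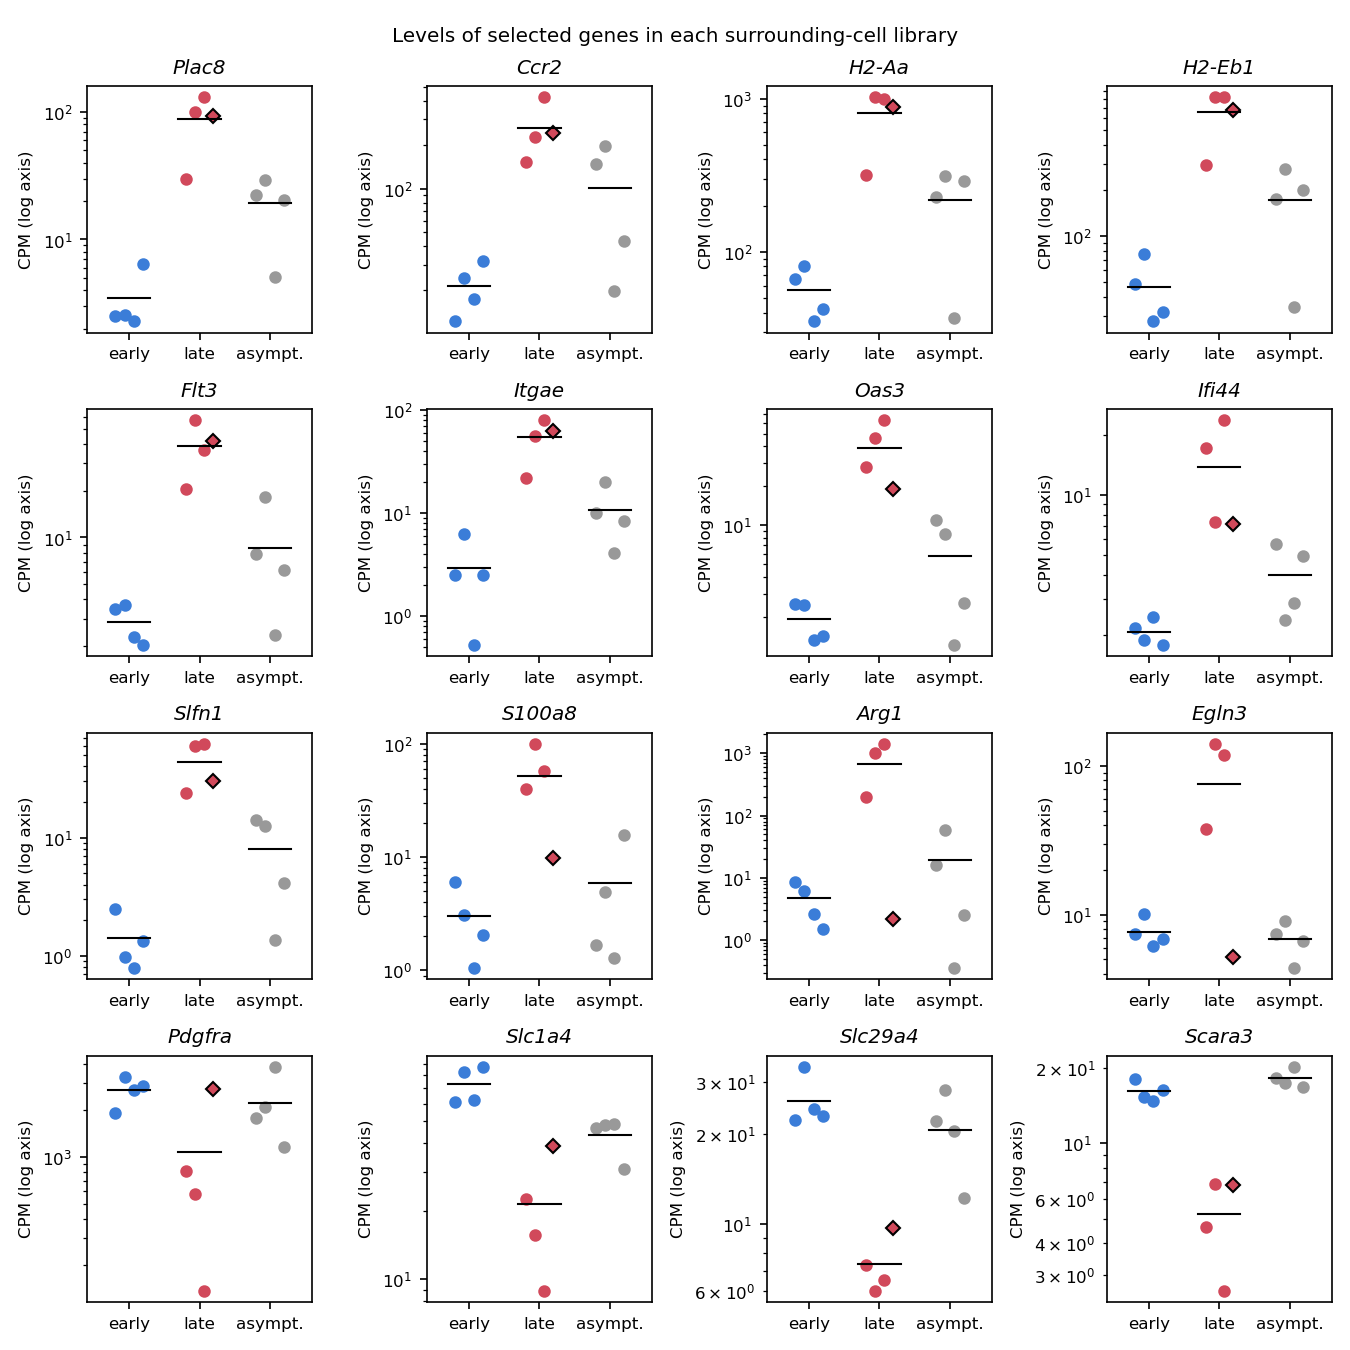
CPM of 16 genes in each surrounding library on log axes, with early symptomatic libraries in blue, late ones in red, asymptomatic ones in grey, 3057E as a black-edged diamond, and lines at the mean. For Plac8, Ccr2, H2-Aa, H2-Eb1, Flt3 and Itgae 3057E lies with the other late libraries; for Arg1, Egln3 and Pdgfra it lies with the early ones or below them.

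Dendritic cell markers rose in 3 of 12 tested genes with all 4 late libraries and in 6 without 3057E, where Fscn1 fell. Flt3, the receptor for the growth factor of dendritic cells, stood at 20.5, 56.7, 36.8 and 41.8 CPM against 3.46, 3.66, 2.28 and 2.04 CPM (3.72 ± 0.56, edgeR adjusted p = 0.0168). Itgae, the integrin CD103 of a dendritic cell subset and of resident T cells, stood at 22.1, 56.8, 79.7 and 63.1 CPM against 0.527 to 6.23 CPM (4.19 ± 0.69). Ccr7, with which mature dendritic cells migrate to lymph nodes, stood at 8.13, 25.5, 17.8 and 12.2 CPM against 0.239 to 1.19 CPM (4.59 ± 0.71, edgeR adjusted p = 0.0169). All 3 had no overlap between the groups. Xcr1, a receptor of cross-presenting dendritic cells, stood at 2.03, 2.26, 13 and 18.2 CPM against 0.717 to 0.977 CPM, and missed the threshold with 4 late libraries (3.31 ± 0.77, adjusted p = 0.0564). The list level in 3057E, 4.72, lay within the range of the other late libraries, 3.89 to 4.95, and the early range was 2.81 to 2.92.

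T and NK cell genes were rare transcripts in all libraries. They rose in 5 of 18 tested genes with all 4 late libraries and in 9 without 3057E, with medians of 3.06 and 2.79. Cd8a, the co-receptor of cytotoxic T cells, stood at 1.55, 5.30, 2.41 and 11.3 CPM in 3054A, 3054B, 3054C and 3057E, against 0.597, 0.395, 0.176 and 0.533 CPM (3.55 ± 0.69, edgeR adjusted p = 0.0284, 17 counts in all over the early libraries). Cd3g, a chain of the T cell receptor complex, stood at 1.32, 3.61, 1.03 and 6.23 CPM against 0.0888 to 0.264 CPM, from 6 early counts. Nkg7, of cytotoxic granules, stood at 0.598, 4.17, 0.775 and 3.78 CPM, and at 0, 0, 0.0878 and 0.178 CPM in early libraries, from 3 counts in all. Both passed the test, but with so few early counts the size of the difference is not fixed by the data. Il7r, the interleukin 7 receptor, stood at 7.77, 33.8, 15.1 and 5.26 CPM against 1.55 to 2.75 CPM (2.75 ± 0.56). Cd3e was the fifth called gene. Cd8a and Cd3g were highest in 3057E, and the list level there, 2.42, was close to that of 3054B, 2.37, with 1.24 and 1.35 in 3054A and 3054C and 0.53 to 0.78 in early libraries. Of 5 tested B cell genes none was called in either fit; 4 had a positive fold in each, with medians of 0.79 and 1.12.

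Interferon response genes rose in 13 of 35 members with all 4 late libraries and in 30 of 35 without 3057E, and all 35 had a positive fold in both fits (medians 1.59 and 1.64). In 26 members every late library stood above every early one. Of the 30 called without 3057E, 3057E was above all early libraries in 23. Besides those described, Oasl2, an oligoadenylate synthetase-like protein, stood at 96.4, 117, 156 and 70.9 CPM against 12.8, 14.8, 15.8 and 34.3 CPM (2.47 ± 0.47). Ifi44, an interferon-induced protein, stood at 17.3, 7.33, 23.7 and 7.19 CPM against 1.78 to 2.46 CPM (2.71 ± 0.46, edgeR adjusted p = 0.0207). The remaining called members included Oas2, Irf7, Usp18, Gbp7, Zbp1 and Herc6. The interferon list stood at 5.42, 5.54 and 6.19 in the 3054 libraries and at 4.80 in 3057E, against 3.22 to 4.17 in early ones.

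MHC class I presentation genes had smaller folds. With all 4 late libraries 3 of 19 rose, and without 3057E 18 of 19 (medians 1.24 and 1.46). H2-Q7, a nonclassical class I molecule with close relatives, stood at 43.7, 99.7, 79.8 and 29.7 CPM against 21.1, 6.52, 16.4 and 16.2 CPM (2.03 ± 0.42, edgeR adjusted p = 0.038). Psmb9, an interferon-induced subunit of the immunoproteasome, stood at 19.3, 26.1, 54.1 and 13.2 CPM against 4.74 to 8.24 CPM (2.03 ± 0.41). Nlrc5, the activator of class I genes, stood at 28.1, 23.3, 23.9 and 23.7 CPM against 5.04 to 10.5 CPM (1.56 ± 0.33, edgeR adjusted p = 0.0391). For Nlrc5 the 4 late libraries were almost equal, whereas for Psmb9 3057E was the lowest of them. Of the 18 class I genes called without 3057E, 3057E was above all early libraries in 4.

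Neutrophil markers rose in 1 of 8 tested genes with all 4 late libraries and in 6 without 3057E (medians 3.41 and 3.68). S100a8, a calcium-binding protein stored in neutrophils, stood at 40.1, 100 and 57.5 CPM in the 3054 libraries and 9.86 CPM in 3057E, against 5.97, 3.06, 1.05 and 2.04 CPM (4.06 ± 0.91, edgeR adjusted p = 0.0496). Mmp8, a collagenase of neutrophil granules, stood at 26.2, 131 and 27.0 CPM in the 3054 libraries, against 0.439 to 5.37 CPM in early ones, and at 4.08 CPM in 3057E, within that range. Ly6g, the marker by which mouse neutrophils are sorted, was not tested: it stood at 0.239 and 0.790 CPM in 3054A and 3054B and at 0 in the other 6 libraries.

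Chemokine and cytokine genes rose in 3 of 24 with all 4 late libraries and in 12 without 3057E, where 2 fell. Il1b, the inflammatory cytokine of myeloid cells, stood at 191, 452, 388 and 187 CPM against 31.8, 26.3, 34.1 and 46.2 CPM (3.10 ± 0.52, edgeR adjusted p = 0.0207). Ccl6, a chemokine of macrophages, stood at 215, 357, 421 and 114 CPM against 44.0 to 78.8 CPM (2.04 ± 0.37), and Cxcl2, which attracts neutrophils, at 72.6, 321, 121 and 13 CPM against 3.66 to 14.9 CPM (3.95 ± 0.89, edgeR adjusted p = 0.0494). Groups did not overlap for Il1b and Ccl6, while Cxcl2 in 3057E lay within the early range. The 2 genes that fell without 3057E were Cx3cl1, the ligand of the microglial receptor Cx3cr1 (-2.0 ± 0.35), and Cxcl12 (-1.86 ± 0.58). Among complement genes Cfp, which encodes properdin, was called with all 4 late libraries (3.60 ± 0.74, edgeR adjusted p = 0.0341), at 28.8, 54.7, 75.5 and 14.2 CPM against 1.93 to 5.04 CPM. Without 3057E 10 of 18 complement genes rose.

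The microglia lists had smaller median folds than the monocyte and MHC class II lists. Of 14 homeostatic markers 0 were called with all 4 late libraries (median 0.44) and 4 rose without 3057E (median 0.79): Selplg, Tmem119, Olfml3 and Cx3cr1. Tmem119, a microglial membrane protein, stood at 387, 396 and 475 CPM in the 3054 libraries and at 34.0 CPM in 3057E, against 211, 135, 157 and 179 CPM (1.26 ± 0.24 without 3057E, edgeR adjusted p = 0.00751). P2ry12, the purinergic receptor of resting microglia, stood at 445, 578 and 549 CPM in the 3054 libraries, at 80.1 CPM in 3057E and at 307, 273, 493 and 661 CPM in early ones, and was called in neither fit (0.24 ± 0.35 without 3057E). In both genes 3057E lay below every early library. Of 22 activated microglia genes 5 rose without 3057E and 0 with it, among them Axl, a receptor kinase for the uptake of dead cells, at 555, 510 and 804 CPM in the 3054 libraries and 170 CPM in 3057E, against 131 to 217 CPM (1.90 ± 0.29). Ptprc, the leukocyte marker CD45, had a log2 fold change of 1.34 ± 0.31 without 3057E (edgeR adjusted p = 0.0138) and 1.22 ± 0.31 with it (adjusted p = 0.0767). For comparison, the medians of the monocyte and MHC class II lists were 2.87 and 3.49 without 3057E.

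A further set of genes was high in the 3054 libraries and not in 3057E. Hypoxia genes rose in 1 of 22 with all 4 late libraries and in 9 of 22 without 3057E (medians 0.91 and 1.23), and glycolysis genes in 0 and 13 of 19 (medians 1.16 and 1.48), with Pfkm lower without 3057E. Egln3 (ENSMUSG00000035105, chromosome 12, 54178981 to 54203860), an oxygen-sensing hydroxylase induced by hypoxia, stood at 37.7, 141 and 118 CPM in 3054A, 3054B and 3054C and at 5.19 CPM in 3057E, against 7.41, 10.1, 6.15 and 6.84 CPM. It was called in both fits (3.25 ± 0.72 and, without 3057E, 3.64 ± 0.41, edgeR adjusted p = 0.0456 and 0.00374), although 3057E lay below every early library. Hilpda, a hypoxia-induced lipid droplet protein, stood at 23, 115 and 64.6 CPM against 3.26 to 9.08 CPM, with 4.45 CPM in 3057E. Tpi1, a glycolytic enzyme, stood at 222, 466 and 615 CPM against 62.7 to 103 CPM, with 63.9 CPM in 3057E (2.31 ± 0.35 without it). Slc16a3, the lactate exporter, stood at 46.1, 114 and 140 CPM, at 5.71 CPM in 3057E and at 6.06 to 20.2 CPM in early libraries (3.09 ± 0.52 without 3057E). None of the 9 hypoxia genes and 1 of the 13 glycolysis genes was above all early libraries in 3057E.

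Of 23 mesenchymal and matrix genes 1 rose with all 4 late libraries and 3 without 3057E. Cd44, a receptor for hyaluronan, stood at 143, 264 and 224 CPM in the 3054 libraries and at 76.3 CPM in 3057E, against 31.0 to 62.8 CPM (2.35 ± 0.66 without 3057E, edgeR adjusted p = 0.0295). Haemoglobin transcripts, which mark blood in a sample, were higher than in early libraries: Hba-a2, an alpha globin with a close copy, stood at 132, 1300 and 490 CPM in the 3054 libraries and 64.7 CPM in 3057E, against 3.22, 12.8, 43.6 and 8.62 CPM in early ones and 120, 83.5, 126 and 795 CPM in the asymptomatic ones. The late and the asymptomatic libraries were all above the early ones. The erythrocyte list stood at 3.97 to 7.36 in late, 1.34 to 3.53 in early and 4.48 to 6.82 in asymptomatic libraries. Its part in the differences of the monocyte, neutrophil and T and NK cell genes, which are also carried in blood, was not tested. In asymptomatic libraries those lists stood at 3.37 to 6.02, 1.43 to 2.80 and 0.92 to 1.82, against 3.70 to 4.64, 1.32 to 2.86 and 0.53 to 0.78 in early and 5.59 to 7.59, 2.99 to 5.39 and 1.24 to 2.42 in late ones. Of 6 erythrocyte genes 5 rose without 3057E, and none of 5 with it, where their median was 4.74 and all 5 folds were positive. Among immediate early genes, which respond to dissociation, 8 of 20 rose and 1, Egr3, fell without 3057E. Of these Btg2 alone rose with it, at 173, 374, 237 and 135 CPM against 36.3 to 75.2 CPM (1.85 ± 0.35, edgeR adjusted p = 0.0274). That list stood at 6.77, 8.26 and 7.74 in the 3054 libraries and 6.39 in 3057E, against 5.49 to 6.85 in early ones, and its part in the other differences was not tested.

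Only 12 genes fell with all 4 late libraries, and 7 of them met the naming rule, with log2 fold changes from -2.12 to -1.21: Rasl11a, Slc29a4, Slc1a4, Scara3, Rgs5, Pcdhga10 and Col9a3. Slc29a4 (ENSMUSG00000050822, chromosome 5, 142692512 to 142722490), a monoamine transporter of the plasma membrane, stood at 7.30, 5.98, 6.54 and 9.71 CPM in 3054A, 3054B, 3054C and 3057E, against 22.3, 33.6, 24.3 and 23 CPM (-1.84 ± 0.28, edgeR adjusted p = 0.0169). The late libraries lay close together, with 3057E the highest, and below every early one. Scara3, a scavenger receptor family member, stood at 4.66, 6.88, 2.58 and 6.82 CPM against 18.0, 15.3, 14.7 and 16.3 CPM (-1.65 ± 0.29, edgeR adjusted p = 0.0207). Rgs5, a regulator of G protein signalling typical of pericytes, stood at 4.66, 5.64, 7.32 and 4.67 CPM against 13.9, 28.9, 12.7 and 12.0 CPM (-1.64 ± 0.35). It was the 1 called gene of the 10 tested in the pericyte and smooth muscle list. In that list 7 genes had a positive fold and the median was 0.32, so the fall of Rgs5 was not that of its list. Slc1a4, a transporter of neutral amino acids, stood at 22.8, 15.7 and 8.87 CPM in the 3054 libraries and at 39.1 CPM in 3057E, against 60.9, 82.4, 62.5 and 87.1 CPM (-1.79 ± 0.37, edgeR adjusted p = 0.038). Rasl11a, a small GTPase of the Ras family, stood at 9.93, 12.4 and 3.79 CPM and at 22.7 CPM in 3057E, against 38.5 to 74.6 CPM (-2.12 ± 0.43). Col9a3, a chain of collagen IX, stood at 5.34 to 9.12 CPM against 12.3 to 19.3 CPM. Pcdhga10 is one of the clustered protocadherins, which share their last exons, so its reads are uncertain.

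Without 3057E, the genes that fell included OPC, neuronal and cholesterol synthesis genes. OPC markers fell in 10 of 17 (median -1.94), against 0 of 17 with all 4 late libraries (median -0.91). Pdgfra (ENSMUSG00000029231, chromosome 5, 75152292 to 75198215), the receptor of the PDGFB that drives these tumours, stood at 812, 575 and 136 CPM in 3054A, 3054B and 3054C and at 2750 CPM in 3057E, against 1920, 3280, 2710 and 2870 CPM (-2.44 ± 0.58 without 3057E, edgeR adjusted p = 0.0153). Nkx2-2, a transcription factor of the oligodendrocyte lineage, stood at 11.1, 7.56 and 6.37 CPM and at 39.7 CPM in 3057E, against 23.3 to 43.0 CPM (-2.03 ± 0.38). Both were low in the 3054 libraries and within the early range in 3057E. Proneural and progenitor genes fell in 8 of 18 without 3057E, among them Sox2, at 24.5, 24.1 and 15.9 CPM and 67.8 CPM in 3057E, against 51.7 to 78.0 CPM (-1.64 ± 0.26, edgeR adjusted p = 0.00407). Neuronal genes fell in 5 of 12 (median -1.95), among them the synaptic genes Snap25 (-2.56 ± 0.73) and Syp (-1.46 ± 0.41). In the sorted glioma cells without 3057E 3 of 12 fell (median -1.03), against 1456 of all 16907 genes tested there. Snap25 and Syp were among them (-2.25 ± 0.42 and -0.66 ± 0.21). The neuron list stood at 2.72 to 3.97 in early surrounding and at 2.79 to 3.56 in early glioma libraries, so these transcripts were not particular to surrounding cells.

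Cholesterol synthesis genes fell in 8 of 18 without 3057E (median -1.32) and in 0 with it (median -1.03). The 10 lower genes with the largest folds without 3057E were Fstl5, Kcnv1, Gng4, Slc22a3, St8sia3, Nkain3, Grin1, C1ql2, Pcp4 and Resp18. Grin1, the obligatory subunit of NMDA glutamate receptors, stood at 13.4, 6.54 and 2.41 CPM in the 3054 libraries and at 47.2 CPM in 3057E, against 53.5, 68.4, 67.9 and 71.9 CPM (-3.17 ± 0.49, edgeR adjusted p = 0.0038). Fstl5 had the largest fold (-3.60 ± 0.81), at 20.2, 3.61 and 2.24 CPM in the 3054 libraries and at 177 CPM in 3057E, above the early range of 37.6 to 156 CPM. Without 3057E, all of these 10 genes except Gng4 (-0.53 ± 0.47) were also called lower in the sorted glioma cells. There Grin1 had a fold of -2.63 ± 0.27 and Fstl5 of -3.73 ± 0.36. In surrounding cells astrocyte markers had medians of -1.06 and -1.44 and 0 of 14 were called in either fit. Mature oligodendrocyte markers fell in 2 of 14 without 3057E. Mitosis, DNA replication and oxidative phosphorylation genes had 0 called members in both fits, with medians from 0.02 to 0.40. Mki67, a marker of cycling cells, stood at 443, 243, 294 and 138 CPM against 203, 173, 389 and 356 CPM, a difference within the spread of the libraries.

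The position of 3057E can be counted over all genes, as a description. Of the 1657 genes that rose without it, 3057E stood above every early library in 591 (35.7%), within their range in 776 (46.8%) and below all of them in 290 (17.5%). Over all genes tested in that fit the shares were 20.7%, 61.2% and 18.1%. Of the 1752 that fell, it stood below every early library in 187 (10.7%), within their range in 1090 (62.2%) and above all of them in 475 (27.1%). For the genes that rose the share on the late side was thus 35.7% against 20.7% over all genes. For those that fell it was 10.7% against 18.1%. Neither difference was tested. The early libraries that set these ranges also took part in choosing the genes, which can by itself shift the shares. By list, 3057E was on the late side for 8 of 9 MHC class II, 9 of 9 T and NK cell, 23 of 30 interferon and 10 of 14 monocyte genes called higher without it. The same held for 4 of 18 MHC class I, 1 of 10 complement, 1 of 13 glycolysis, 0 of 9 hypoxia and 0 of 4 homeostatic microglia genes.

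**Figure D3:**
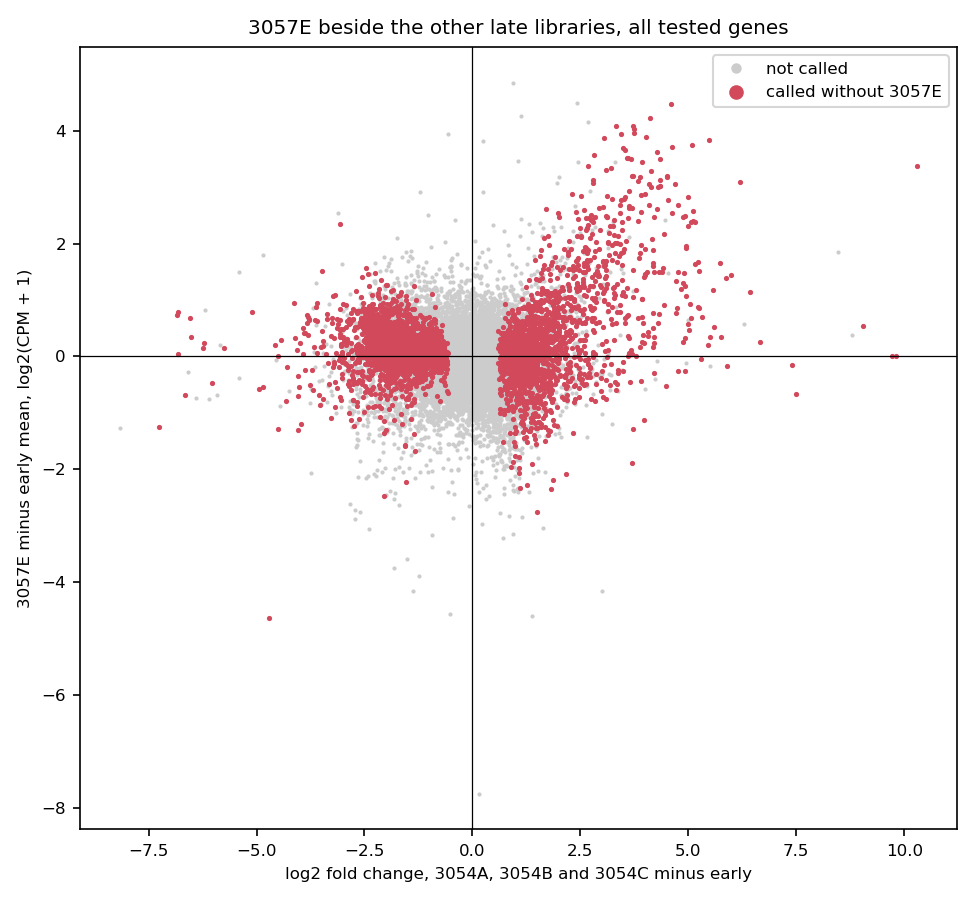
Each point is a gene tested without 3057E: the horizontal axis is the log2 fold change of 3054A, 3054B and 3054C against the early libraries, and the vertical axis is 3057E minus the early mean in log2(CPM + 1). Genes called without 3057E are red; of the 1657 called higher, 591 stood above every early library in 3057E, while most of the 1752 called lower lie near or above 0 on the vertical axis.

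The asymptomatic libraries, from 33 to 34 days, are shown for the level of these genes in animals without symptoms. For 238 of the 248 higher genes (96.0%) the asymptomatic mean lay between the early and the late mean, and for the other 10 it lay on the far side of the early mean. Over all tested genes it lay between them in 42.0%. The 248 genes were chosen for a wide gap between the early and the late mean. A wide gap can by itself hold the asymptomatic mean more often, so 96.0% cannot be read against 42.0%. In the fit with 3 late libraries the asymptomatic mean lay between them for 80.0% of the genes called higher and 60.7% of those called lower. H2-Aa stood at 227, 314, 37.1 and 289 CPM in 3228A, 3228B, 3228D and 3229B, so that 3 of the 4 exceeded the highest early library, at 80.7 CPM. Plac8 stood at 22.4, 29.3, 5.10 and 20.4 CPM, and Ccr2 at 147, 195, 19.8 and 43.9 CPM. In each of these genes 3228D was at the level of the early libraries, and the other 3 were above them. Of the 12 lower genes, 6 had an asymptomatic mean between the 2 groups. The difference of early from asymptomatic tumours was not tested here.

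The difference between late and early stage was also compared with that in the sorted glioma cells of the same tumours, as an interaction. With all 4 late tumours 0 of 18812 genes were called (0.0%), with 1166 at an unadjusted p under 0.05, while DESeq2 called 43. Without 3057E edgeR called 869 of 19255 (4.51%), 489 with a more positive and 380 with a more negative difference in surrounding cells. With the tumour as a block, since both libraries of a code come from the same brain, it called 0 and 2426. The 869 numbered 304 without 3054B, 106 without 3054C, 1629 without 3108C, 318 without 3108D, 149 without 3109D, 343 without 3145A and 15 without both 3108D and 3109D. Sox2 fell in surrounding cells (-1.64 ± 0.26) but had 0.28 ± 0.22 in glioma cells, with a difference of -1.84 ± 0.34 (edgeR adjusted p = 0.00714). Hilpda rose in surrounding cells (3.49 ± 0.47) and had 0.36 ± 0.25 in glioma cells, with a difference of 3.23 ± 0.55 (edgeR adjusted p = 0.00417). Slc29a4 also differed (-1.60 ± 0.35, edgeR adjusted p = 0.016), with -0.33 ± 0.22 in glioma cells. Slc1a4 fell in both, by -2.25 ± 0.32 and -1.73 ± 0.18, and the difference of -0.45 ± 0.34 was not called (adjusted p = 0.503). Axl rose in both, by 1.90 ± 0.29 and 2.48 ± 0.30, and Egln3 by 3.64 ± 0.41 and 2.57 ± 0.38, again with no called difference (adjusted p = 0.558 and 0.265).

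By list, MHC class I genes differed between the populations in 9 of 19, all more positive in surrounding cells, and in 12 with the block. Complement genes did so in 4 of 18 (9 with the block), homeostatic microglia genes in 5 of 14 (8) and MHC class II genes in 4 of 9 (8). For homeostatic microglia genes the median fold without 3057E was -1.37 in glioma and 0.79 in surrounding cells. For complement genes it was -1.05 over 12 tested in glioma and 1.56 in surrounding cells. The differences of these 2 lists thus hold lower late values in glioma cells too. Selplg stood there at 0.591 to 2.23 CPM in the 3054 tumours and 2.43 to 4.96 CPM in early ones. Proneural and progenitor genes differed in the negative direction in 5 of 18 (11 with the block) and OPC genes in 2 of 17 (8). Over all 19255 genes 489 were called more positive and 380 more negative, and with the block 1145 and 1281. The block thus raised the calls across all genes, not in these lists alone. Hypoxia genes, 9 of 22 of which rose in surrounding cells and 19 of 22 in glioma cells without 3057E (8.57% of all genes tested in glioma cells rose), differed in 3, of which 1 was more positive and 2 were more negative in surrounding cells. Many immune genes were near 0 in glioma cells, where a fold is poorly determined: Oas3, with a difference of 6.41 ± 1.33, stood at 0 to 0.169 CPM in the glioma cells of the 3054 tumours and at 0.0788 to 0.526 CPM in early ones. In the glioma library of 3057E Cx3cr1 stood at 275 CPM, against 276 CPM in its surrounding library, and Ptprc at 69.3 CPM against 340 CPM, whereas the 3054 gliomas had 3.04 to 6.66 CPM of the former and 0.422 to 1.67 CPM of the latter.

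**Figure D4:**
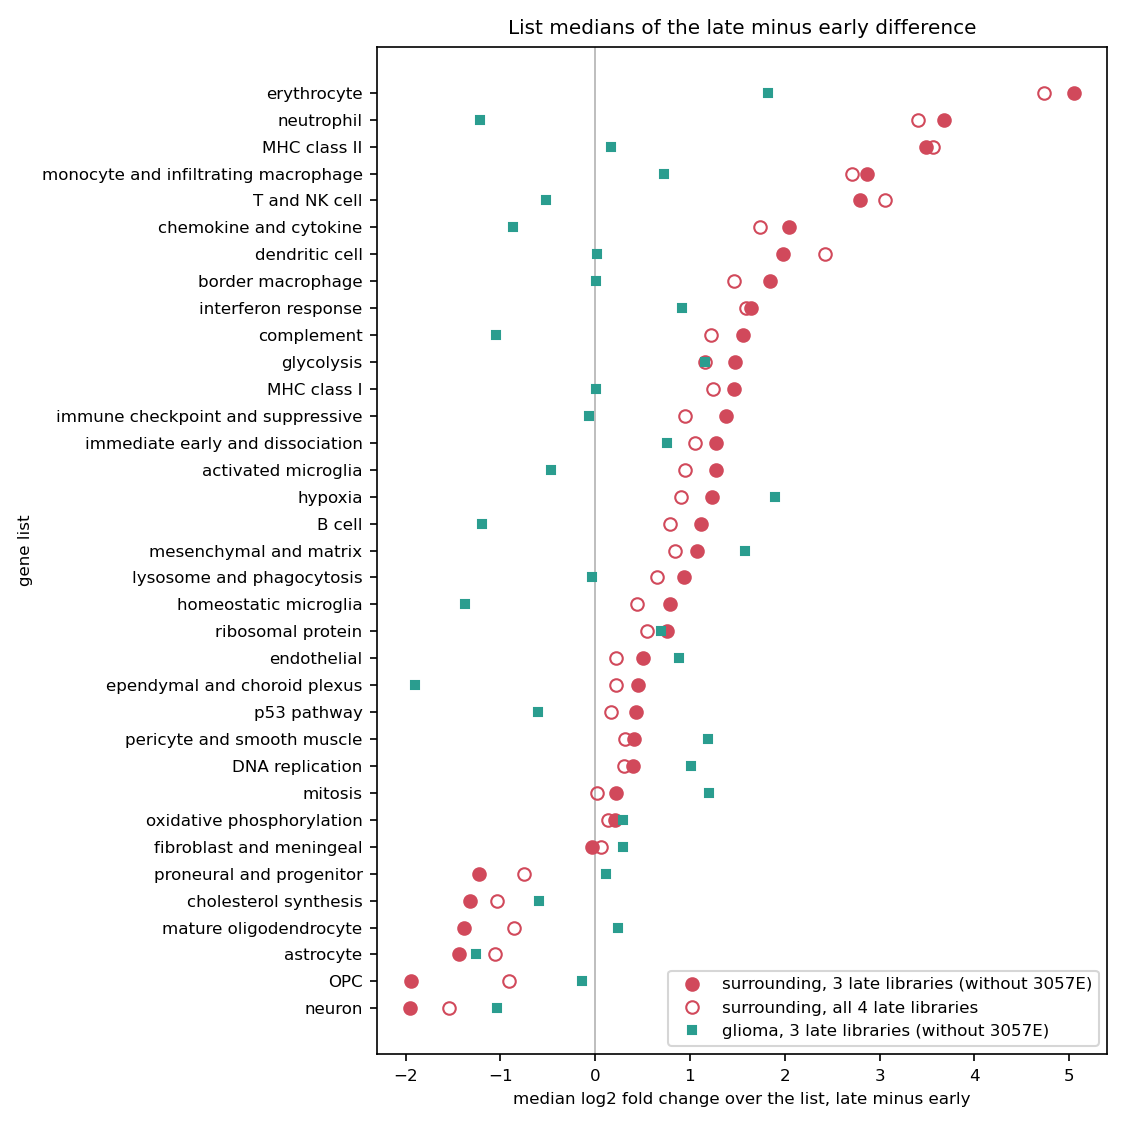
Median log2 fold change of each gene list between late and early symptomatic tumours, in surrounding cells with 3 late libraries (filled red) and with all 4 (open red) and in glioma cells with 3 late libraries (green squares); members not tested in a fit are left out of its median. MHC class II, monocyte and T and NK cell lists have the larger medians in surrounding cells, hypoxia and mitosis lists the larger ones in glioma cells. For MHC class II, monocyte and T and NK cell lists the glioma medians rest on 5, 10 and 2 tested members. In surrounding cells they rest on 9, 18 and 18, so these medians are not over the same genes.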

How the data were processed

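The members, gene lists and rules were chosen with earlier results of these data known. The authors deposited 1 table of gene-level expected counts made by RSEM 1.3.1 from STAR 2.7.5c alignments to GRCm38, per the submitters' processing notes. PolyA RNA went into a total RNA library kit, per the labels' protocols. The annotation release, the strand setting and the use of molecular identifiers are not given in the sources used here, so antisense and overlapping genes, and genes with near-identical copies, are uncertain. Expected counts of the 55938 genes were rounded, and the total of a surrounding library shifted by at most 87.5 counts. Libraries of the same group were checked for duplicates by chi-square over genes, and the smallest value per degree of freedom was 31.9, so none was a copy. The labels give each library its own tumour, but not litters; p-values measure the spread between these tumours.

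The tool was edgeR 4.0.16 under R 4.3.3 (TMM scaling, the tool's filter at a minimum count of 10, robust quasi-likelihood test, Benjamini-Hochberg adjustment over all genes tested, called under 0.05). Group means of the 12 surrounding libraries were fitted and late minus early tested; the same was done without 3057E, and the interaction with glioma cells was fitted in 24 and 22 libraries. Standard errors derive from the F statistic. The procedure was tested on simulated counts. The 35 gene lists are described by counts and medians, with no test of a list. Some genes are in 2 lists, such as Vcan, Arg1, Siglech, Bst2 and Axl. Named genes are up to 10 higher and 10 lower called genes with the largest folds whose late and early libraries do not overlap and whose mean log2(CPM + 1) reaches 3, the same without 3057E, from each list up to 4 members by smallest p, and 8 fixed genes; predicted, mitochondrial, receptor segment and sex-linked genes were left out of the first 2 parts. Other list members are named where called members are enumerated or their values bear on a list, chosen after their values were seen. Some genes that the rule names are not reported here. Coordinates come from GENCODE mouse release 21 (98.6% of identifiers matched), promoters from RefSeq GRCm38.p6.

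Alternatives were DESeq2 1.42.0, limma 3.58.1 voom with sample weights, a fold limit of 2, no robust spread, other count filters, scaling by size factors, other sets of libraries, Xist as a covariate, each library left out, and the tumour as a replicate block in the interaction. After seeing the data, fits were added that leave out 3108D and 3109D together or exchange these codes in the block. Per the labels a code names 1 tumour, so its glioma and surrounding libraries are paired; deviations of glioma and surrounding libraries of a code from their group means correlated at 0.02 to 0.48.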

Additional observations from a re-analysis of the deposited data

Results flagged for a closer look

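Several values stood apart by the gap to the nearest library of the same group relative to the range of the 4, a measure that flags about 1 group in 20 by chance. Among the late libraries, 3057E stood apart in the level of the homeostatic microglia list (6.22, the others at 8.74 to 9.07) and of the B cell list (2.24, the others at 2.72). It also stood apart in 6 of the lower genes named without it: Fstl5 at 177 CPM (others 2.24 to 20.2), Kcnv1 at 32.0 CPM (0.516 to 4.19) and Slc22a3 at 41.2 CPM (1.55 to 7.18), and likewise Nkain3 at 20.2 CPM (1.29 to 3.59), C1ql2 at 29.6 CPM (1.03 to 4.43) and Resp18 at 19.1 CPM (1.03 to 3.16). Those genes were chosen in a fit without that library. Among the early libraries, 3108D stood apart in the immediate early list (5.49, the others at 6.64 to 6.85) and in Rgs5 (28.9 CPM, others 12.0 to 13.9), and 3145A in Plac8 (6.48 CPM, others 2.28 to 2.57).

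The stage difference of surrounding cells differed from that of glioma cells in 869 genes without 3057E, tested as an interaction with edgeR. Among the genes with the largest folds these included Oas3, with a difference of 6.41 on the log2 scale, and Slc29a4, with -1.60. Oas3 was near 0 in glioma cells, at 0 to 0.169 CPM in the 3054 tumours and 0.0788 to 0.526 CPM in early ones. The size of its difference is therefore poorly determined. The cause of these differences was not tested.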

How the results depend on the processing

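The direction of the 44 genes named by the rule and called with all 4 late libraries was the same in every alternative run, 966 values in all, while the calls were not. DESeq2 called 949 higher and 199 lower genes with all 4 late libraries, and limma voom with sample weights 2619 and 2574, or 3564 and 3354 without 3057E. The fit of late and early libraries alone left 4 lower genes, and 1 fit of both populations gave 61 lower ones, and 2555 higher ones without 3057E. With 1 library left out at a time, higher genes numbered 0 to 1657 and lower ones 0 to 1752 with all 4 late libraries, the highest without 3057E, and 693 to 2326 and 626 to 2241 when 3057E was out already. Without both 3108D and 3109D the counts were 0 higher and 0 lower with and without 3057E. Xist as a covariate, a fold limit of 2, other count filters, size factors and no robust spread left the counts of called genes within 1.5 times.

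In the interaction with glioma cells, the block on the tumour pairing left 0 genes with all 4 late tumours, and gave 2426 in place of 869 without 3057E. With the codes 3108D and 3109D exchanged in the pairing the block gave 2 and 2918, and the exchanged libraries deviated together at 0.36 and 0.47, against 0.04 and 0.02 as labelled. DESeq2 called 43 and 1822. With 1 tumour left out the counts were 0 to 869 with all 4 late tumours, the highest without 3057E, and 106 to 1629 when 3057E was out already, and 15 without both 3108D and 3109D. No paired analysis was possible for late against early surrounding cells, because no tumour is in both groups.

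Among the other named genes, none of them called, a fold changed sign in 13 cases. With 1 library left out, Mki67 (-0.03) ranged from -0.36 to 0.19, with positive values without 3054B, 3057E, 3109D or 3145A (0.04, 0.19, 0.17 and 0.09), and Xist as a covariate gave 0.19. Pdgfrl (-0.62) ranged from -0.96 to 0.22 and Fbln1 (-0.50) from -1.09 to 0.25, both highest without 3108C, and voom gave 0.28 and 0.01. Ighd (0.79) ranged from -0.03 without 3054C to 1.14. Without both 3108D and 3109D Dynlrb2 went to 0.29, Tmem212 to 0.54 and Pecam1 to -0.13. The cause was not tested. Depth limits the folds of genes with few counts, such as Nkg7, Cd3g and Cd8a, with 3 to 17 counts over the 4 early libraries.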
